A study of Homo sapiens with 9 samples.

Results

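The ABCC conjugate exporters and drug pumps were taken by gene symbol as a set of 8 genes, ABCC1, ABCC2, ABCC3, ABCC4, ABCC5, ABCC10, ABCB1 and ABCG2, out of 60880 gene rows. All 8 were found in the files, and 4 of them (ABCC1, ABCC4, ABCC5 and ABCC10) passed the filter on low counts. RNA sequencing measured them in LNCaP, an established human prostate cancer cell line of epithelial origin that responds to androgen. The 3 groups of 3 libraries were a UGT2B28 rescue (KD4OE, UGT2B28 overexpressed on the knockdown background), a UGT2B28 knockdown (KD4) and a control (NT), all labelled with a time of 24 h. Per the labels, puromycin at 3 µg/mL selected the knockdown and G418 at 1 mg/mL the rescue, and no antibiotic is named for the control. The construct, its antibiotic and the 1 knockdown line that was sequenced therefore cannot be told apart. Separate cultures are not named for the replicates of a group. The p-values therefore set a difference between groups only against the spread among these libraries, a spread that may be technical.

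ABC transporters bind and hydrolyse ATP on the inner side of a membrane and use it to move a substrate across. The ABCC exporters carry conjugates, in which a drug, steroid or lipid mediator has been joined to glucuronic acid, glutathione or sulfate, and they act downstream of the enzymes that make those conjugates. UGT2B28 belongs to a family of enzymes that join steroids, androgens among them, to glucuronic acid. ABCB1 (P-glycoprotein) and ABCG2 (BCRP) are the classical multidrug pumps of other subfamilies, and puromycin is a known substrate of ABCB1. ABCC4 is known in prostate tissue as a gene that responds to androgen.

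Promoter sequence is shown for ABCC4 and ABCC5, 2 exporters that differed in opposite directions between knockdown and control. The sequences are the 250 bases before the gene start in RefSeq (GRCh38.p14), written 5′ to 3′ on the gene's strand. The table held a promoter for 6 of the 8 genes. It held none for ABCC3 or for ABCC1, which also rose in knockdown against control. Capitals mark the matches, on either strand, to 5 motifs: the GC box GGGCGG, the TATA box TATAAA, the androgen receptor motif AGAACA, the antioxidant response element core TGACNNNGC and the E-box CACGTG. No 2 of the capital runs overlap.
ABCC4, chr13:95301452-95301701, minus strand: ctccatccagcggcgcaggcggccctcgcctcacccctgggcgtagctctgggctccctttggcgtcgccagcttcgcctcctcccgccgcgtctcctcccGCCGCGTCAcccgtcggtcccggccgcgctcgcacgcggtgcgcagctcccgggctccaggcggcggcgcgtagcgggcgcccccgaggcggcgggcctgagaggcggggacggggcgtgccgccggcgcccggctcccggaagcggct
ABCC5, chr3:184017885-184018134, minus strand: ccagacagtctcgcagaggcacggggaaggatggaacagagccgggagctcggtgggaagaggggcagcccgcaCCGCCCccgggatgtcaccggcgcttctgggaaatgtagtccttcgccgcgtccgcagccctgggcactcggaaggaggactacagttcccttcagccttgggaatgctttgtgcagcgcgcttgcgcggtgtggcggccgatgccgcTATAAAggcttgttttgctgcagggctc
The ABCC4 window held 80.4% G and C, against a median of 58% over all 35114 windows in the table. Its single match was an antioxidant response element core on the opposite strand, 149 to 141 bases before the start; 10.9% of all windows held that motif. The ABCC5 window held 64.8% G and C. It had a GC box on the opposite strand, 176 to 171 bases before the start, and a TATA box 28 to 23 bases before it. Of all windows, 42.6% held the GC box and 10.7% the TATA box, while 12.4% held the partial androgen receptor motif and 6.35% the E-box. A match is a description of letters and not a measured binding site.

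Gene counts summed to 20300744 to 26459528 per library. UGT2B28 itself averaged 62.3 ± 7.23 CPM (depth-normalised read counts with TMM-scaled library sizes; SD, n = 3 in each group) in rescue, 0.344 ± 0.301 CPM in knockdown and 0.525 ± 0.380 CPM in control. It rose in rescue against knockdown (log2 fold change 7.41, edgeR adjusted p = 2.7e-08). The knockdown over control difference had a log2 fold change of −0.60 (SE 0.62) and an edgeR adjusted p of 0.52. A loss of the transcript in knockdown could thus not be seen at this depth, and each group is called by its label. All 12 luminal prostate markers passed the filter. Their summed level was 9410 to 10400 CPM in rescue, 9310 to 9790 CPM in knockdown and 4450 to 4680 CPM in control. Single luminal markers moved both ways at an edgeR adjusted p under 0.05. In knockdown against control 9 were higher and 1 lower, and in rescue against control 8 were higher and 2 lower. In rescue against knockdown 3 were higher and 2 lower, beside 10.1% of all genes tested. The summed level of 8 basal epithelial markers was 9.91 to 11.3 CPM in rescue, 8.74 to 9.3 CPM in knockdown and 20.1 to 26.7 CPM in control, with 4 tested and none at 0. That sum hides genes that moved in opposite directions. At an edgeR adjusted p under 0.05, 1 of the 4 was higher and 2 were lower in knockdown against control. In rescue against control 1 was higher and 1 lower. Over all genes tested, 32.1% and 37.8% passed in these 2 comparisons. The 8 neuroendocrine markers summed to 1150 to 1180 CPM in rescue, 687 to 817 CPM in knockdown and 1100 to 1210 CPM in control, with 2 tested and CHGB among those at 0. Of 11 fibroblast, endothelial and immune markers 10 were found, with 4 tested and PTPRC and CD3E at 0. They summed to 66.9 to 78.9 CPM in rescue, 52.2 to 61.4 CPM in knockdown and 68.6 to 77.8 CPM in control. Of the 4 tested, 1 was higher and 2 were lower in knockdown against control, and 1 was higher and 1 lower in rescue against control. The 8 hepatocyte markers, hepatocytes being rich in conjugate exporters, summed to 1.12 to 2.29 CPM in rescue, 1.6 to 2.21 CPM in knockdown and 0.936 to 2.18 CPM in control. The part of these marker levels in the results was not tested.

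Between groups, 3 of the 4 tested exporters were called in knockdown against control: ABCC1 and ABCC4 rose and ABCC5 fell. A call is an edgeR quasi-likelihood test with a Benjamini-Hochberg adjusted p under 0.05 over all 18389 genes tested. In that comparison 32.1% of all genes tested were called, 16.5% higher and 15.6% lower. In rescue against knockdown 1 of the 4 exporters was called, ABCC4, which fell; of all genes tested 10.1% were called, 5.2% higher and 4.88% lower. In rescue against control 2 of the 4 were called, ABCC1 higher and ABCC5 lower, against 37.8% of all genes tested, 19% higher and 18.8% lower. With 4 genes, nothing particular to the exporters is read from these counts. The median log2 fold change of the 4 tested exporters was 0.27 in knockdown against control, −0.0014 in rescue against knockdown and 0.10 in rescue against control, beside medians over all genes of 0.01, −0.0048 and −0.0025 in the same order of comparisons. The 3 comparisons share libraries, so their values for a gene are not independent.

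**Figure D1:**
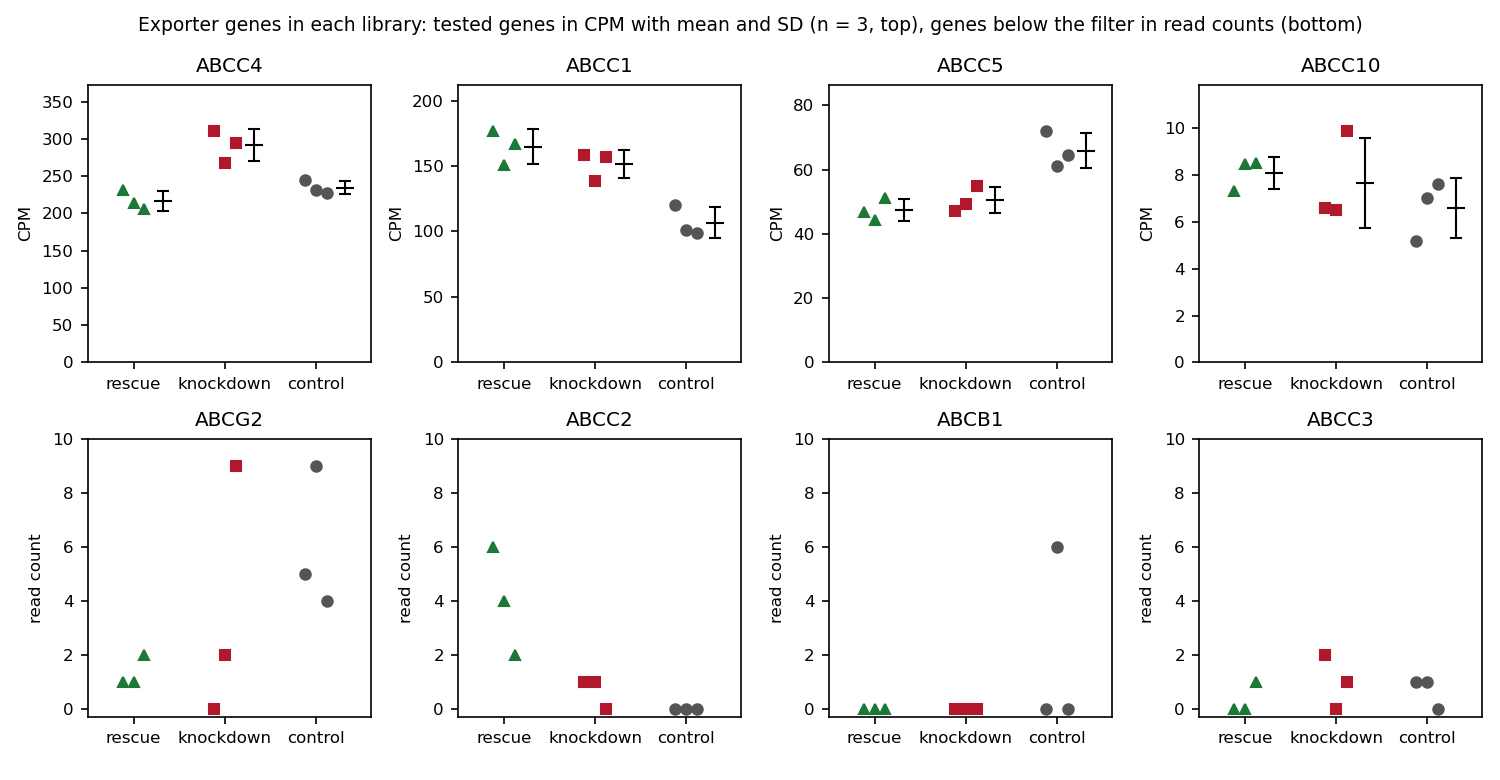
Level of each exporter gene by library. The upper panels plot CPM of the 4 tested genes with the mean and SD (n = 3) beside the libraries, and the lower panels plot read counts of the 4 genes below the filter. ABCC4 is highest in the 3 knockdown libraries (268.3 to 311 CPM), ABCC1 is lowest in control (98.5 to 120.2 CPM) and ABCC5 is highest in control (61.16 to 72.09 CPM). No gene in the lower row passes 9 counts in any library.

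ABCC4 (MRP4, ENSG00000125257.14_4, chromosome 13) exports cyclic nucleotides, prostaglandins and conjugated steroids. It had 231.8, 213.7 and 205.4 CPM in the rescue libraries, 311, 268.3 and 294.7 CPM in the knockdown libraries and 244.3, 231.1 and 227.9 CPM in the control libraries. All 3 knockdown libraries lay above all 6 others, while rescue and control overlapped, with 2 of the 3 rescue libraries below every control library. In rescue against knockdown ABCC4 fell by 0.43 on the log2 scale (SE 0.073), to 0.745 of the knockdown level (95% interval 0.658 to 0.843, edgeR adjusted p = 2e-04). In knockdown against control it rose 1.24-fold (95% interval 1.10 to 1.41, log2 fold change 0.31 ± 0.073 SE, edgeR adjusted p = 0.0014). Rescue was at 0.925 of the control level (95% interval 0.817 to 1.05, edgeR adjusted p = 0.24), which did not pass the test. Of the 4 tested exporters, ABCC4 alone was called in rescue against knockdown.

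ABCC1 (MRP1, ENSG00000103222.18_3, chromosome 16) exports glutathione conjugates, among them leukotriene C4, and a range of anticancer drugs. The rescue libraries had 176.9, 150.4 and 167.1 CPM, the knockdown libraries 158.7, 138.9 and 156.6 CPM and the control libraries 120.2, 100.9 and 98.5 CPM. Every rescue and every knockdown library lay above every control library, and rescue and knockdown overlapped. Rescue stood 1.55-fold above control (95% interval 1.34 to 1.78, log2 fold change 0.63 ± 0.083 SE, edgeR adjusted p = 5.9e-07). Knockdown stood 1.42-fold above control (95% interval 1.23 to 1.64, log2 fold change 0.51 ± 0.083 SE, edgeR adjusted p = 2.2e-05). Rescue against knockdown gave a fold of 1.09 (95% interval 0.946 to 1.25, edgeR adjusted p = 0.42), an interval that leaves room for a change in either direction.

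ABCC5 (MRP5, ENSG00000114770.16_3, chromosome 3) exports cyclic nucleotides, nucleotide analogues and glutamate conjugates. It had 46.96, 44.25 and 51.16 CPM in rescue, 47.09, 49.34 and 55.04 CPM in knockdown and 72.09, 61.16 and 64.63 CPM in control. All 6 rescue and knockdown libraries lay below the 3 control libraries, and rescue and knockdown overlapped. Rescue fell to 0.719 of the control level (95% interval 0.616 to 0.841, log2 fold change −0.48 ± 0.092 SE, edgeR adjusted p = 0.00014). Knockdown fell to 0.765 of the control level (95% interval 0.655 to 0.893, log2 fold change −0.39 ± 0.092 SE, edgeR adjusted p = 0.0016). Rescue over knockdown was 0.941 (95% interval 0.804 to 1.10, edgeR adjusted p = 0.64), which did not pass the test.

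ABCC10 (MRP7, ENSG00000124574.14_4, chromosome 6) carries taxanes and some conjugates and was the lowest of the tested exporters. Its libraries held 7.30, 8.47 and 8.54 CPM in rescue, 6.60, 6.52 and 9.89 CPM in knockdown and 5.17, 7.01 and 7.63 CPM in control. The 3 groups overlapped, and 1 knockdown library was the highest of the 9. No comparison passed the test. The log2 fold change was 0.30 ± 0.19 SE in rescue against control (edgeR adjusted p = 0.24), 0.09 ± 0.19 in rescue against knockdown (edgeR adjusted p = 0.85) and 0.22 ± 0.20 in knockdown against control (edgeR adjusted p = 0.44). The intervals allow folds of 0.887 to 1.72 in rescue against control and of 0.835 to 1.62 in knockdown against control, and both hold no change as well as the fold found for ABCC1. The direction of its knockdown difference rested on 1 library: without knockdown replicate 3 the log2 fold change against control was −0.0019.

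For each exporter and comparison without overlap, an exact two-sided permutation test of the 6 libraries gave p = 0.1, the smallest that 3 libraries against 3 allow. Mitochondrial reads were 3.19% to 3.86% of gene counts in rescue, 2.56% to 2.89% in knockdown and 4.64% to 5.69% in control. With the mitochondrial genes left out, the log2 fold change in knockdown against control was 0.51 for ABCC1, 0.32 for ABCC4 and −0.38 for ABCC5.

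**Figure D2:**
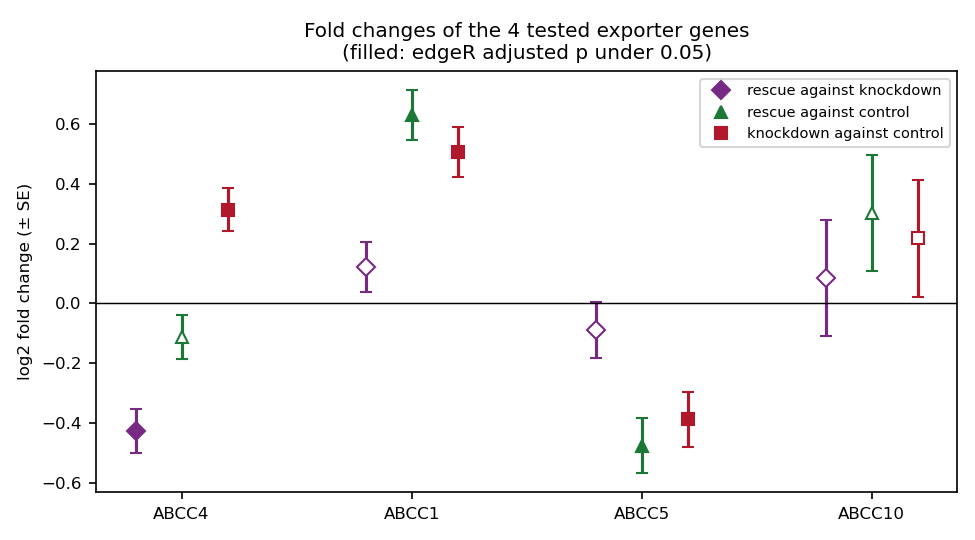
Log2 fold change of the 4 tested exporters in rescue against knockdown (diamonds), rescue against control (triangles) and knockdown against control (squares), with bars of 1 SE from the edgeR fit; filled symbols passed the test. ABCC4 is filled below 0 in rescue against knockdown (−0.43) and above 0 in knockdown against control (0.31), while ABCC1 and ABCC5 are filled only against control, on opposite sides of 0.

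Per kilobase of exons, ABCC4 was the most abundant exporter, followed by ABCC1, ABCC5 and ABCC10. ABCC4 averaged 25.1 CPM per kb in rescue, 33.7 in knockdown and 27.2 in control. ABCC1 averaged 21.8 CPM per kb in rescue, 19.99 in knockdown and 14.1 in control. ABCC5 was at 4.15, 4.41 and 5.77 CPM per kb and ABCC10 at 1.00, 0.949 and 0.817 CPM per kb in rescue, knockdown and control. Averaged over the 9 libraries, these levels placed ABCC4 at percentile 91.6, ABCC1 at 86.2, ABCC5 at 57.2 and ABCC10 at 24.8 of all genes tested. Exon lengths came from GENCODE v29 and include every annotated transcript; with the longest coding transcript in their place (5.856 kb for ABCC4, 6.594 kb for ABCC1, 5.921 kb for ABCC5 and 5.088 kb for ABCC10) the order of the 4 genes was the same in each group.

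The balance between exporters was read within each library, where depth and scaling cancel. The ABCC4 over ABCC1 ratio of read counts was 1.31, 1.421 and 1.229 in rescue, 1.959, 1.932 and 1.883 in knockdown and 2.032, 2.291 and 2.314 in control. The 3 groups did not overlap, and rescue was lowest (exact permutation p = 0.1 for each pair of groups, the smallest possible). The ABCC5 over ABCC1 ratio was 0.2654, 0.2943 and 0.3062 in rescue, 0.2967, 0.3552 and 0.3516 in knockdown and 0.5998, 0.6063 and 0.6561 in control. Control stood above all 6 other libraries, and rescue and knockdown overlapped (exact permutation p = 0.2 for that pair). For ABCC4 over ABCC5 the ratio was 4.936, 4.83 and 4.014 in rescue, 6.604, 5.437 and 5.355 in knockdown and 3.388, 3.778 and 3.526 in control. Knockdown was highest and control lowest, without overlap. These ratios show unequal change between a pair of genes and not which of the pair changed.

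**Figure D3:**
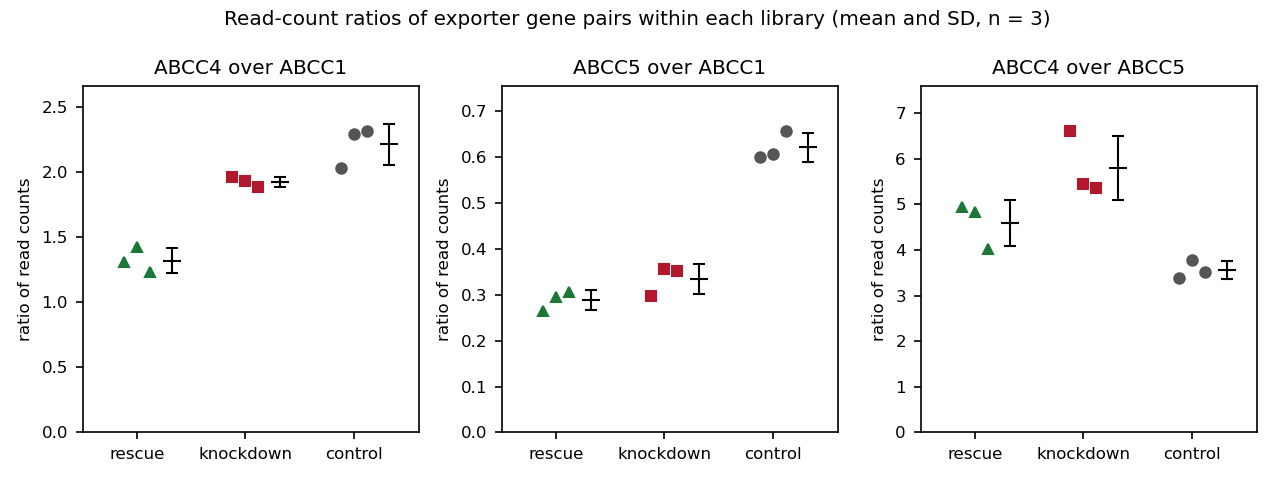
Ratio of read counts of 2 exporter genes within each library, with the mean and SD (n = 3) beside the points, for ABCC4 over ABCC1, ABCC5 over ABCC1 and ABCC4 over ABCC5. ABCC4 over ABCC1 is lowest in rescue (1.229 to 1.421), ABCC5 over ABCC1 is highest in control (0.5998 to 0.6561) and ABCC4 over ABCC5 is highest in knockdown (5.355 to 6.604).

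Of all reads in the 8 exporter genes, ABCC4 held 47.5% to 51.3% in rescue, 57% to 59.4% in knockdown and 55.3% to 57.6% in control. The share of ABCC1 was 36.1% to 38.6% in rescue, 30% to 30.3% in knockdown and 24.7% to 27.2% in control. ABCC5 held 10.1% to 11.8% in rescue, 8.99% to 10.7% in knockdown and 15.3% to 16.3% in control. The 8 genes summed to 463.3, 417 and 432.3 CPM in rescue, 523.5, 463.2 and 516.7 CPM in knockdown and 441.9, 400.9 and 398.8 CPM in control, with overlap between rescue and each of the other groups.

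The other 4 exporters were at or near 0. ABCC2 (MRP2, ENSG00000023839.11_3, chromosome 10) is the apical exporter of bilirubin glucuronides in liver. It had 6, 4 and 2 counts in the rescue libraries, 1, 1 and 0 in the knockdown libraries and 0, 0 and 0 in the control libraries. Each rescue library was above every knockdown and control library. The rescue total of 12 counts was 5.98 times the knockdown total of 2 after scaling for depth (95% exact interval 1.33 to 55, counting error only; exact permutation p = 0.1). Against control the rescue total was 3.9-fold higher, taking a floor of 3 counts over the 3 control libraries. That fold leaves out the counting error of the 12 rescue counts and is not a lower bound. With no filter on low counts, edgeR gave ABCC2 an adjusted p of 0.1 in rescue against control, which did not pass the test.

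ABCG2 (ENSG00000118777.11_5, chromosome 4) pumps sulfated steroids and urate besides drugs. Its counts were 1, 1 and 2 in rescue, 0, 2 and 9 in knockdown and 5, 9 and 4 in control. Rescue lay below control without overlap, and knockdown overlapped both. The scaled ratio of rescue to control was 0.217 (95% exact interval 0.0534 to 0.658, counting error only; exact permutation p = 0.1), and edgeR without a filter gave an adjusted p of 0.33. Knockdown over control was 0.599 (0.256 to 1.34), an interval that spans 1.

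ABCB1 had no count in the rescue and knockdown libraries and 6 counts in control, all in replicate 2. ABCC3 (MRP3), the basolateral exporter of glucuronides, had 1 count in all of rescue, 3 in knockdown and 2 in control. At this depth 3 counts over a group correspond to 0.0417 CPM in rescue, 0.0412 CPM in knockdown and 0.0432 CPM in control, and levels below that could not be seen. None of the 4 low genes was called in any comparison when edgeR was run without the filter. Of their 12 edgeR tests, that of ABCC2 in rescue against control alone had an unadjusted p under 0.05.

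Neighbouring and overlapping genes were looked at because the strand setting of the counting is not given in the sources used here, so reads of a gene and of its antisense partner cannot be told apart. ABCC5-AS1 had 2 counts in rescue, 6 in knockdown and 5 in control, far below ABCC5. DLK2, which overlaps ABCC10, had 35 counts in rescue, 54 in knockdown and 42 in control. RUNDC3B, which overlaps ABCB1, had 1 count in rescue, 16 in knockdown and 40 in control and fell in rescue against control (edgeR adjusted p = 0.0025). ABCC6, which lies beside ABCC1 and is related to it in sequence, rose against control, by 1.39 ± 0.30 (log2, SE) in rescue (edgeR adjusted p = 0.00043) and by 1.16 ± 0.30 in knockdown (edgeR adjusted p = 0.0033). It averaged 3.79 CPM in rescue, 3.21 CPM in knockdown and 1.44 CPM in control, and its values are uncertain because ABCC6P1 and ABCC6P2 are near copies of it.

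The genes most like each exporter were taken by Pearson's r of log2 CPM over the 9 libraries, as a description of libraries that share 3 groups. They were PABIR2 (r = 0.987) and CIP2A (0.984) for ABCC1, PIGG (0.988) and AP3D1 (0.985) for ABCC5, ZNF26 (0.965) and ALDH16A1 (0.962) for ABCC4, and ZFAND4 (0.951) and EFCAB2 (0.929) for ABCC10. An r above 0.9 was reached by 472 of 15587 genes with ABCC1 and 464 with ABCC5, but by 31 with ABCC4 and 7 with ABCC10. ZNF26 averaged 19.9 CPM in rescue, 28.0 CPM in knockdown and 21.2 CPM in control, the same order of groups as ABCC4. It was picked by its r with ABCC4 in these same libraries, so the shared order is no separate result.

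Among the other ABC genes, changes were scattered over the subfamilies. For these and the later lists, the share called over all genes tested was 37.8% in rescue against control, 10.1% in rescue against knockdown and 32.1% in knockdown against control. Of the 4 other ABCC genes tested, ABCC6 alone was called, against control in both rescue and knockdown. In rescue against knockdown edgeR, DESeq2 and limma voom called 0 of these 4, and 1 had an unadjusted edgeR p under 0.05. Of 5 ABCA genes, 1 was higher and 2 lower in rescue against control, 1 was higher and 1 lower in rescue against knockdown, and 2 were higher and 2 lower in knockdown against control. ABCA12, a lipid exporter of skin, averaged 1.13 ± 0.682 CPM in rescue, 2.37 ± 1.33 CPM in knockdown and 22.3 ± 2.69 CPM in control. It fell by 4.35 on the log2 scale in rescue against control (edgeR adjusted p = 1.9e-05) and by 3.21 in knockdown against control (edgeR adjusted p = 0.00012). ABCA2, a transporter of late endosomes, fell in the same comparisons by 0.79 (edgeR adjusted p = 3.3e-09) and by 0.69 (edgeR adjusted p = 6.6e-08). ABCA3, the lipid transporter of lung surfactant, averaged 43.7 ± 5.95 CPM in rescue, 29.8 ± 2.34 CPM in knockdown and 21.3 ± 5.02 CPM in control. It rose by 1.03 in rescue against control (edgeR adjusted p = 1.4e-06), by 0.55 in rescue against knockdown (edgeR adjusted p = 0.0076) and by 0.48 in knockdown against control (edgeR adjusted p = 0.008); the last call was lost without control replicate 3 (adjusted p = 0.055 in the edgeR fit). ABCA5 averaged 13.5 ± 1.65 CPM in rescue, 19.3 ± 1.00 CPM in knockdown and 14.4 ± 0.954 CPM in control, highest in knockdown like ABCC4. Its log2 fold change was −0.51 in rescue against knockdown (edgeR adjusted p = 0.0077, lost without rescue replicate 1 at an adjusted p of 0.068) and 0.42 in knockdown against control (edgeR adjusted p = 0.011).

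Of 7 genes of the ABCB group with TAP1 and TAP2, 3 were higher and 1 lower in rescue against control and 2 (TAP1 and TAP2) were higher in rescue against knockdown. The call of TAP1 in that comparison was lost without knockdown replicate 1 or 3 or rescue replicate 1 or 2 (adjusted p 0.054 to 0.082 in the edgeR fits). TAP2, a subunit of the peptide pump that feeds antigen presentation, averaged 7.02 ± 0.544 CPM in rescue, 3.79 ± 0.673 CPM in knockdown and 3.11 ± 0.0627 CPM in control, and rose in rescue against knockdown (log2 fold change 0.89 ± 0.21 SE, edgeR adjusted p = 0.0054). Of 7 ABCD, ABCE and ABCF genes, 1 was higher and 1 lower in rescue against control, 1 was higher in rescue against knockdown and 1 was higher in knockdown against control. ABCE1, a ribosome recycling factor, was the call in rescue against knockdown (log2 fold change 0.26), and leaving out any rescue or knockdown library ended it (adjusted p 0.059 to 0.15 in the edgeR fits). ABCG1, a sterol exporter, was the only other ABCG gene tested. Its call in rescue against control (log2 fold change −0.35, edgeR adjusted p = 0.046) was lost in 11 of 18 alternatives, with adjusted p up to 0.16.

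**Figure D4:**
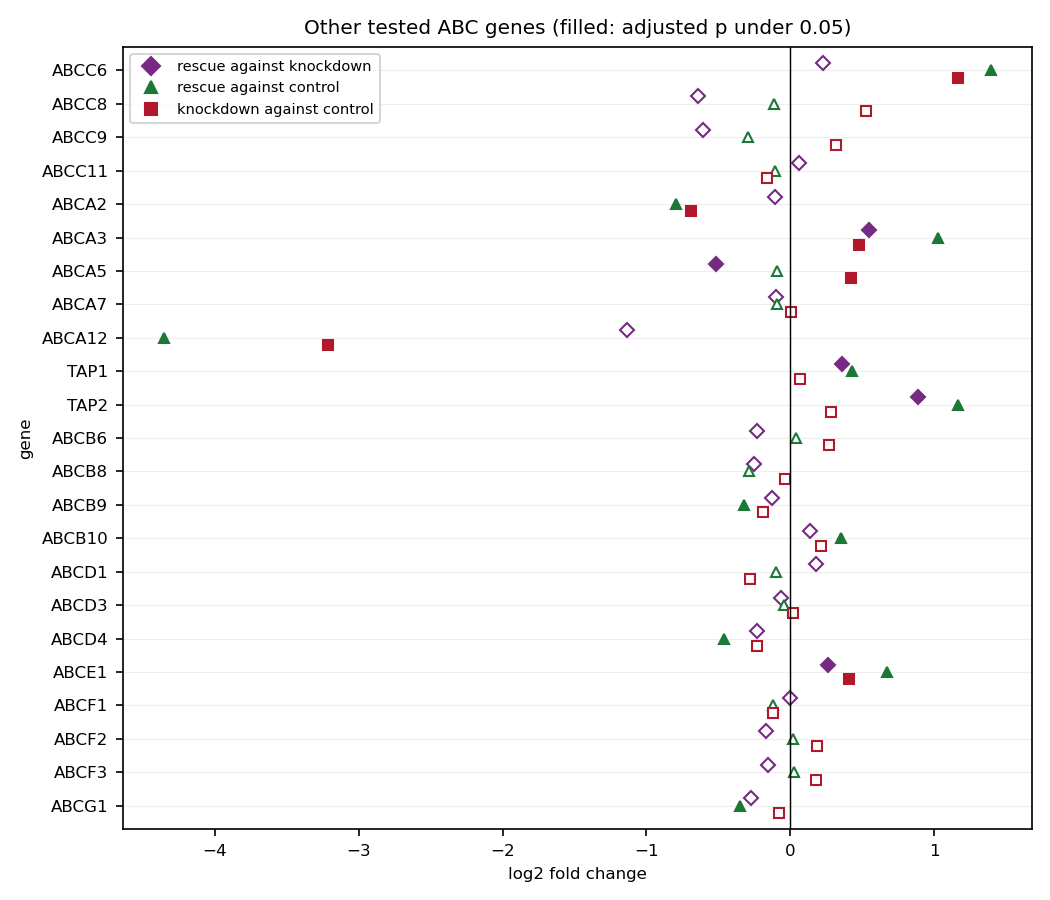
Log2 fold changes of other ABC genes that passed the filter, with rescue against knockdown as diamonds, rescue against control as triangles and knockdown against control as squares; filled symbols passed the edgeR test. ABCA12 lies farthest left (−4.35 in rescue against control) and ABCC6 farthest right (1.39), and most symbols of the other subfamilies lie near 0 and are open.

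Carriers that bring organic anions into cells were mostly below the filter, with 4 of 19 tested; 1 was higher and 2 were lower both in rescue and in knockdown against control. Between rescue and knockdown edgeR, DESeq2 and limma voom called 0, with 0 at an unadjusted edgeR p under 0.05. SLCO4A1, an uptake carrier of thyroid hormone and steroid conjugates, averaged 55.2 ± 3.08 CPM in rescue, 53.9 ± 1.79 CPM in knockdown and 97.4 ± 5.27 CPM in control. Its log2 fold change against control was −0.82 ± 0.081 SE in rescue (edgeR adjusted p = 2.8e-09) and −0.85 ± 0.081 in knockdown (edgeR adjusted p = 1.7e-09). SLCO5A1, an orphan carrier of the same family, had log2 fold changes of −2.19 in rescue against control (edgeR adjusted p = 4.9e-09) and −1.87 in knockdown against control (edgeR adjusted p = 8.3e-08). Of 7 other drug and bile acid carriers tested, 2 were higher in rescue against control, 1 was higher in rescue against knockdown and 1 was lower in knockdown against control. SLC22A3, an organic cation carrier, averaged 37.0 ± 2.87 CPM in rescue, 10.4 ± 2.22 CPM in knockdown and 9.97 ± 1.00 CPM in control, and rose in rescue against knockdown by a log2 fold change of 1.83 (SE 0.14, edgeR adjusted p = 2.3e-10).

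Glutathione is both a conjugate and a cosubstrate of ABCC1 and ABCC2. Of 13 tested genes of glutathione synthesis and turnover, 6 were higher and 2 lower in rescue against control (median log2 fold change 0.19), 3 were lower in rescue against knockdown (median −0.08), and 7 were higher and 2 lower in knockdown against control (median 0.29). GSS was among the 3 lower in rescue against knockdown (log2 fold change −0.27, edgeR adjusted p = 0.037). Its call was lost without TMM scaling and without control replicate 3, knockdown replicate 2 or 3 or any rescue library (adjusted p 0.053 to 0.22 in the edgeR fits). SLC7A11, the cystine importer subunit, averaged 48.4 ± 3.87 CPM in rescue, 43.5 ± 3.19 CPM in knockdown and 27.2 ± 2.53 CPM in control. It rose against control by 0.83 ± 0.10 SE in rescue (edgeR adjusted p = 1.2e-07) and by 0.68 ± 0.10 in knockdown (edgeR adjusted p = 4.7e-06). SLC3A2, its heavy chain partner, averaged 301 ± 25.0 CPM in rescue, 389 ± 35.1 CPM in knockdown and 261 ± 4.81 CPM in control. GCLC, the catalytic subunit of the first step of glutathione synthesis, averaged 37.2 ± 1.03 CPM in rescue, 50.7 ± 2.12 CPM in knockdown and 41.8 ± 0.889 CPM in control. Both were highest in knockdown, like ABCC4: in rescue against knockdown SLC3A2 fell by 0.37 (edgeR adjusted p = 0.0014) and GCLC by 0.45 (edgeR adjusted p = 0.00098), and in knockdown against control SLC3A2 rose by 0.57 (edgeR adjusted p = 9.1e-07) and GCLC by 0.28 (edgeR adjusted p = 0.016). GGT7 rose against control by 1.28 ± 0.13 SE in rescue (edgeR adjusted p = 2.7e-09) and by 1.20 ± 0.13 in knockdown (edgeR adjusted p = 1.2e-08). GGT1, which breaks down exported glutathione and its conjugates, rose by 2.18 in rescue and by 1.88 in knockdown against control; it has near-identical copies, so its counts are uncertain.

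Of 12 glutathione transferases tested, 3 were higher and 4 lower in rescue against control, 1 was higher in rescue against knockdown, and 3 were higher and 4 lower in knockdown against control. GSTK1, the mitochondrial and peroxisomal enzyme, averaged 23.3 ± 3.23 CPM in rescue, 29.6 ± 0.364 CPM in knockdown and 45.2 ± 6.41 CPM in control, and fell against control by 0.95 in rescue (edgeR adjusted p = 9.8e-08) and by 0.61 in knockdown (edgeR adjusted p = 0.0001). MGST1, a membrane-bound transferase, rose against control by 0.31 in rescue (edgeR adjusted p = 0.003) and by 0.39 in knockdown (edgeR adjusted p = 0.00035). GSTA1 averaged 5.97 ± 0.954 CPM in rescue, 3.70 ± 0.364 CPM in knockdown and 45.7 ± 9.11 CPM in control, and fell in both comparisons with control (log2 fold change −2.94 in rescue, edgeR adjusted p = 4.4e-15, and −3.62 in knockdown, edgeR adjusted p = 2e-16); reads of the close relative GSTA2 may be shared with it. Its call in rescue against knockdown (log2 fold change 0.68, edgeR adjusted p = 0.01) was lost without rescue replicate 1 (adjusted p = 0.074), without knockdown replicate 2 (adjusted p = 0.057) and with limma voom (adjusted p = 0.13).

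**Figure D5:**
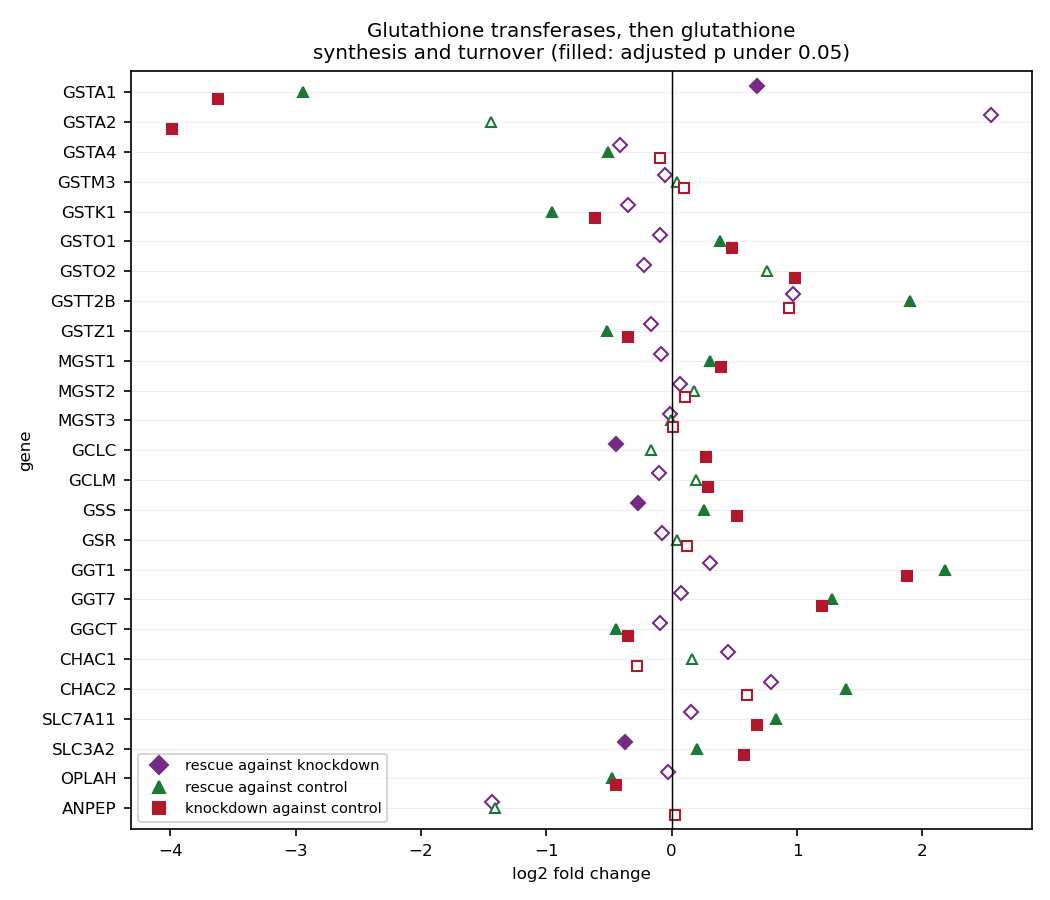
Log2 fold changes of the tested glutathione transferases (upper 12 genes) and of the tested genes of glutathione synthesis and turnover (lower 13 genes), with symbols as for the other ABC genes and filled where the edgeR test was passed. GSTA1 lies far left in both comparisons with control (−2.94 and −3.62), GGT1 lies right (2.18 and 1.88), and GCLC and SLC3A2 are filled on the left in rescue against knockdown and on the right in knockdown against control.

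Of 20 genes that add, supply or remove sulfate, 13 were tested, with 2 higher and 4 lower in rescue against control, 1 lower in rescue against knockdown, and 1 higher and 4 lower in knockdown against control. The list holds the sulfatases STS, ARSA and ARSB, which remove sulfate, and calls of ARSA (lower) and ARSB (higher) are part of the count in rescue against control. The single call in rescue against knockdown was also ARSA (log2 fold change −0.46, edgeR adjusted p = 0.02), and it was lost without knockdown replicate 3, rescue replicate 1 or rescue replicate 3 (adjusted p = 0.12, 0.072 and 0.095 in the edgeR fits). SULT2B1, which sulfates cholesterol and hydroxysteroids, averaged 21.3 ± 1.55 CPM in rescue, 25.9 ± 2.04 CPM in knockdown and 42.3 ± 2.01 CPM in control. It fell against control by 0.99 in rescue (edgeR adjusted p = 9e-09) and by 0.71 in knockdown (edgeR adjusted p = 3.1e-06). PAPSS2, which makes the sulfate donor, averaged 1.55 ± 0.407 CPM in rescue, 3.15 ± 0.918 CPM in knockdown and 0.320 ± 0.0825 CPM in control, and rose against control by 2.29 in rescue (edgeR adjusted p = 9.6e-05) and by 3.30 in knockdown (edgeR adjusted p = 3.7e-07).

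Regulators that respond to foreign compounds, oxidants or other stress are known to act on exporter genes. The list holds such regulators and also the target enzymes NQO1 and CYP1A1. Of 20 genes tested, 5 were higher and 6 lower in rescue against control, 3 higher and 4 lower in rescue against knockdown, and 5 higher and 6 lower in knockdown against control. AHR, the aryl hydrocarbon receptor, averaged 1.79 ± 0.0658 CPM in rescue, 4.34 ± 0.374 CPM in knockdown and 13.4 ± 1.20 CPM in control. It fell by 2.90 in rescue against control (edgeR adjusted p = 1.5e-12), by 1.28 in rescue against knockdown (edgeR adjusted p = 8.1e-05) and by 1.62 in knockdown against control (edgeR adjusted p = 3.8e-08). KEAP1, the inhibitor that marks NRF2 for degradation, averaged 87.9 ± 8.15 CPM in rescue, 62.3 ± 2.31 CPM in knockdown and 41.0 ± 2.64 CPM in control, and rose in all 3 comparisons (log2 fold changes of 1.10, 0.50 and 0.60; edgeR adjusted p = 3.7e-11, 0.00021 and 3.4e-06, in rescue against control, rescue against knockdown and knockdown against control). The transcript of NRF2 itself, NFE2L2, averaged 45.6 ± 1.73 CPM in rescue, 53.6 ± 6.39 CPM in knockdown and 45.4 ± 3.22 CPM in control and passed no test. Those counts include CYP1A1, a target of the aryl hydrocarbon receptor, which was higher in knockdown against control (log2 fold change 1.29, edgeR adjusted p = 0.0046) and lower in rescue against knockdown (−1.36, edgeR adjusted p = 0.01). NQO1, a classical NRF2 target, rose against control by 0.69 in rescue (edgeR adjusted p = 9.2e-07) and by 0.71 in knockdown (edgeR adjusted p = 8.1e-07). BACH1, a repressor at NRF2 target sites, fell against control by 0.75 in rescue (edgeR adjusted p = 4.2e-08) and by 0.72 in knockdown (edgeR adjusted p = 1.4e-07).

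Exporters of this family are held at the membrane by scaffold proteins. The list holds scaffold and linker genes and also the kinase PIM1 and the signalling adaptor GRB10, which were both lower against control in rescue and in knockdown. Of its 9 tested genes, 2 were higher and 6 lower in rescue against control, 1 was lower in rescue against knockdown, and 2 were higher and 5 lower in knockdown against control. Over all genes tested, 37.8%, 10.1% and 32.1% were called in the same order of comparisons. EZR, which encodes ezrin, averaged 57.1 ± 4.92 CPM in rescue, 87.3 ± 4.79 CPM in knockdown and 116 ± 11.1 CPM in control. It fell by 1.02 in rescue against control (edgeR adjusted p = 9e-11), by 0.61 in rescue against knockdown (edgeR adjusted p = 1.1e-05) and by 0.41 in knockdown against control (edgeR adjusted p = 0.00034). MSN, which encodes the related moesin, rose against control by 0.90 in rescue (edgeR adjusted p = 2.3e-08) and by 0.91 in knockdown (edgeR adjusted p = 2.7e-08). NHERF1, a PDZ adaptor that binds the tail of ABCC4, averaged 157 ± 9.82 CPM in rescue, 146 ± 3.90 CPM in knockdown and 193 ± 10.2 CPM in control, and fell against control by 0.29 in rescue (edgeR adjusted p = 0.0016) and by 0.40 in knockdown (edgeR adjusted p = 7.1e-05).

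ABCC4 and ABCC5 export cyclic nucleotides, and ABCC4 also exports prostaglandins. Of 21 tested genes of those pathways, 4 were higher and 7 lower in rescue against control, 1 was higher in rescue against knockdown, and 3 were higher and 7 lower in knockdown against control. HPGD, which inactivates prostaglandins, averaged 4.94 ± 1.13 CPM in rescue, 2.51 ± 0.499 CPM in knockdown and 0.186 ± 0.163 CPM in control, and rose against control by 4.61 in rescue (edgeR adjusted p = 5.7e-10) and by 3.63 in knockdown (edgeR adjusted p = 1.2e-07). It was also the single call in rescue against knockdown (log2 fold change 0.98, edgeR adjusted p = 0.039), which was lost when rescue replicate 1 or 2 or any knockdown library was left out (adjusted p 0.059 to 0.19). Genes that make or break down cyclic AMP were among those that fell. PDE8A had log2 fold changes of −0.70 in rescue (edgeR adjusted p = 4e-05) and −0.45 in knockdown (edgeR adjusted p = 0.0047) against control, and PDE4D had −1.45 in rescue (edgeR adjusted p = 5.5e-05) and −0.93 in knockdown (edgeR adjusted p = 0.0048). The adenylate cyclase ADCY3 had −0.60 in rescue (edgeR adjusted p = 0.0001) and −0.44 in knockdown (edgeR adjusted p = 0.0035), and ADCY6 had −0.36 in rescue (edgeR adjusted p = 0.00072) and −0.42 in knockdown (edgeR adjusted p = 0.00021). PDE9A, which breaks down cyclic GMP, averaged 52.5 ± 3.98 CPM in rescue, 51.5 ± 2.68 CPM in knockdown and 36.9 ± 2.20 CPM in control, and rose against control by 0.51 in rescue (edgeR adjusted p = 5.7e-05) and by 0.48 in knockdown (edgeR adjusted p = 0.00016). Of 5 leukotriene genes 2 were tested. LTC4S, which makes the ABCC1 substrate leukotriene C4, was lower in rescue against control (log2 fold change −0.92, edgeR adjusted p = 0.012) and in knockdown against control (−0.80, edgeR adjusted p = 0.032). The first of these calls was lost without rescue replicate 2 or 3 (adjusted p = 0.067 and 0.077 in the edgeR fits), and the second without control replicate 1 or 3 or knockdown replicate 1 or 3 (adjusted p 0.06 to 0.19). LTA4H, which makes leukotriene B4, was higher in knockdown against control (log2 fold change 0.30, edgeR adjusted p = 0.0038). Between rescue and knockdown edgeR, DESeq2 and limma voom called 0, with 0 at an unadjusted edgeR p under 0.05.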

How the data were processed

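The authors deposited 1 table of raw read counts per gene for each of 9 LNCaP libraries. The submitters' processing notes name FastQC, cutadapt, HISAT2, HTSeq and hg19. Neither versions, library strandedness nor the strand setting is given in the sources. Summary rows, such as reads in no gene, held 57.08% to 59.7% of the reads in each table and entered neither library sizes nor tests.

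Counts were tested in R 4.3.3 with edgeR 4.0.16 (filterByExpr with a minimum count of 10, TMM scaling, robust quasi-likelihood fit with a mean for each group over 9 libraries, leaving 6 residual degrees of freedom, Benjamini-Hochberg adjustment over 18389 genes). Each SE was worked back from the F statistic and the fold change, and 95% intervals rest on it. Changes given as "rose by" or "fell by" are log2. Folds against a group at 0 use a floor of 3 counts over the group; floors and count intervals cover counting error only. The scripts were tested on simulated counts. Alternatives used DESeq2 1.42.0, limma 3.58.1, other scalings and filters, and left out each library in turn; leaving out mitochondrial genes was added after seeing the data.

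A symbol table named 56414 gene identifiers, GENCODE v29 another 444, and 4022 had no symbol. GENCODE v29 and RefSeq are of GRCh38, not the build of the counts, and gave only names, exon lengths, neighbours and promoter sequence. The exporters and gene lists were chosen with earlier results of these data known. Named genes were the exporters, UGT2B28, the exporters' neighbours, up to 4 genes per list and comparison with the smallest adjusted p among those called without overlap, and the 2 genes most like each exporter with a mean of at least 1 CPM. NFE2L2, CYP1A1, ARSB and STS fall outside that rule and were picked with their values known. Replicate libraries differed by 5.04 to 21.8 times the sampling noise (chi-square per degree of freedom), so none was counted as a copy. Results for 2 listed genes are not reported here.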

Additional observations from a re-analysis of the deposited data

How the results depend on the processing

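The exporters called stayed at 3 in knockdown against control, 1 in rescue against knockdown and 2 in rescue against control under each of the 18 alternatives. Of 216 exporter fold changes under the alternatives, 213 kept their direction and their side of the threshold. The exceptions were ABCC10 in knockdown against control without knockdown replicate 3 (log2 fold change −0.0019) and in rescue against knockdown without knockdown replicate 1 (−0.0143) or 2 (−0.0131); the cause was not tested. Over all 18 alternatives, ABCC10 ranged from −0.0019 to 0.3329 in knockdown against control and from −0.0143 to 0.3061 in rescue against knockdown. Leaving out a library gave 4858 to 5788 genes called in knockdown against control, 1196 to 2364 in rescue against knockdown and 5809 to 6995 in rescue against control. The 1196 calls came without rescue replicate 1, against 1854 with all libraries. Libraries with the same replicate number had correlations of deviations from their group means of −0.037 to 0.077, and 0 of 9 passed 0.1. That measure is taken over all genes and cannot exclude a pairing that touches some of them. A fit with the replicate number as a block called 6348 genes in knockdown against control (5899 without the block). It called 2319 in rescue against knockdown (1854 without) and 7363 in rescue against control (6946 without). The exporters called with the block were 3, 1 and 2 in the same order. Of 2168 values of other named genes, 2095 kept their call, 73 lost it and 0 changed sign. Depth limits ABCC2, ABCC3, ABCB1 and ABCG2, with at most 9 counts in a library, to counts and wide intervals.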
